A study of Mus musculus with 2 samples.

Results

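The genes described here encode potassium channels, their accessory subunits and a few RNAs transcribed from the same loci. They are all genes of the deposited tables whose symbol begins with Kcn, together with Abcc8 and Abcc9, the sulphonylurea receptor subunits of ATP-sensitive potassium (KATP) channels. Of 32285 genes in the tables, 101 match, and 71 of these had at least 50 unique molecular identifiers (UMIs, each standing for 1 captured RNA molecule) over both libraries and are the members. Just inside that limit were Kcne1l with 52 UMIs, Kcnh8 with 53 and Kcnab3os with 57, and just outside it were Kcnh6 with 46, Kcnj9 with 42 and Kcnh3 with 39. Of the 30 genes that match but are not members, 3 had no UMI at all. By type, the members are 27 pore-forming voltage-gated subunits, 11 accessory subunits of voltage-gated channels, 7 inward rectifiers, the KATP pair Kcnj8 and Abcc9, 10 tandem-pore (K2P) channels, 8 subunits of calcium-activated channels, the Slo-type channels Kcnt2 and Kcnu1, and 4 genes that encode no channel subunit.

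Single-cell RNA sequencing was performed on dorsal skin of male C3H/HeN mice, a wild-type strain, shaved and treated from 7 weeks of age and collected at 9 weeks. The TP group received testosterone propionate under the skin at 0.5 mg per day as a model of androgenetic alopecia, and the control group received the vehicle. Tissue of 15 mice was pooled into a single library per group after digestion with collagenase D, so each group has 1 library and no spread between mice can be given. After filtering, 39076 control cells (median 2047 UMIs) and 18542 TP cells (median 4851 UMIs) were kept, with 106296602 and 133890830 UMIs. Members held 89246 control UMIs, 0.0840% of the library, and 69341 TP UMIs, 0.0518%. The libraries share 303 cell barcodes, of which 186 were kept in both, and leaving them out did not change the counts of members called over the whole library, whereas in outer bulge-like cells 3 members were then called higher in place of 4. Levels are CPM, the UMIs of a gene scaled to a common total in the class and library named, with no scaling for gene length, since a 3' library tags each molecule near its end. The intervals are exact 95% intervals (Poisson for a level, conditional binomial for a TP over control ratio, Clopper-Pearson for a share), and cover counting error only.

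Potassium channels let potassium ions pass down their electrochemical gradient, usually out of the cell, and so set the resting membrane potential, end action potentials and shape calcium entry and cell volume. Voltage-gated (Kv) channels open on depolarisation, inward rectifiers hold the resting potential, K2P channels carry background currents, and calcium-activated channels couple the membrane to intracellular calcium. KATP channels, built from Kir6 pores and sulphonylurea receptors, close when ATP is plentiful. They are known in skin because minoxidil, a drug used for hair loss, acts in its sulphated form as a KATP channel opener. Dermal papilla cells (DPCs) are the specialised fibroblasts at the base of the hair follicle that signal to the hair-forming epithelium.

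Cells were clustered with the potassium channel genes left out of the clustering features, and a cluster was given a class name, always written with "-like", only from marker genes of that class. The TP library differed from the control library in its mix of classes. Outer bulge-like cells, named for the hair follicle stem cell region, made up 1.58% of control and 8.82% of TP cells, and dermal fibroblast (DF)-like cells 0.320% and 2.92%. Inner root sheath-like cells made up 13.5% and 4.33%, and interfollicular epidermis (IFE) basal-like cells 7.84% and 17.9%. DPC-like cells were 4050 control cells (10.4%) and 1622 TP cells (8.75%), and all 14 DPC markers were detected in them, with a summed level of 21625 and 20902 CPM against 291.9 and 206.4 CPM in outer bulge-like cells. The DPC-like class joins a Luzp2-led cluster (1754 control and 1045 TP cells), a Syt6-led cluster (2256 and 280 cells) and a Tnn-led cluster (40 and 297 cells), so that most control cells were Syt6-led and most TP cells Luzp2-led. By UMIs, the Luzp2-led cluster supplied 53.2% of the class in control and 77.2% in TP, and the Syt6-led cluster 46.1% and 12.9%. At a finer clustering (resolution 2) the Luzp2-led cells divided mainly into Rxfp2-led cells (1190 control and 156 TP) and Sncb-led cells (430 and 866), so the libraries also differed in state within that cluster. Values within the class are therefore given by cluster as well, and for the main genes by these finer clusters, an alternative chosen after seeing the data. Other classes shifted in the same way. DF-like cells were led in control by a Myo16-led cluster (70 of 125 cells) and in TP by a Creb3l3-led one (200 of 542), melanocyte-like cells by a Fstl4-led (175 of 254) and a Npy-led cluster (140 of 178), and myeloid-like cells by an Ear2-led (59 of 136) and a Cd209f-led cluster (223 of 347).

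The members differed widely in level. Kcnq1ot1, Kcnh1 and Kcnq3 together held 55.1% of the 158587 member UMIs, and 23 members reached 1000 UMIs while 4 stayed under 50 in the kept cells. Each member was ranked over 32 units, namely the 15 named classes and the 17 clusters that stayed unnamed, counting a unit only where it held at least 10 UMIs of the gene. The highest unit was the smooth muscle and pericyte-like class for 10 members, the DPC-like class for 9, and the myeloid-like and outer bulge-like classes for 5 each. Of 56 members that could be ranked in both libraries, 33 had the same highest unit in both. Where a second unit also held at least 10 UMIs, the highest unit was at least 2-fold above it for 29 members and at least 10-fold above it for 6. Members with no second such unit, among them Kcnj3, Kcna1 and Kcnk3, have no such ratio and are left out of these counts. In all, 14 members had at least 50% of their UMIs in their highest unit.

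**Figure D1:**
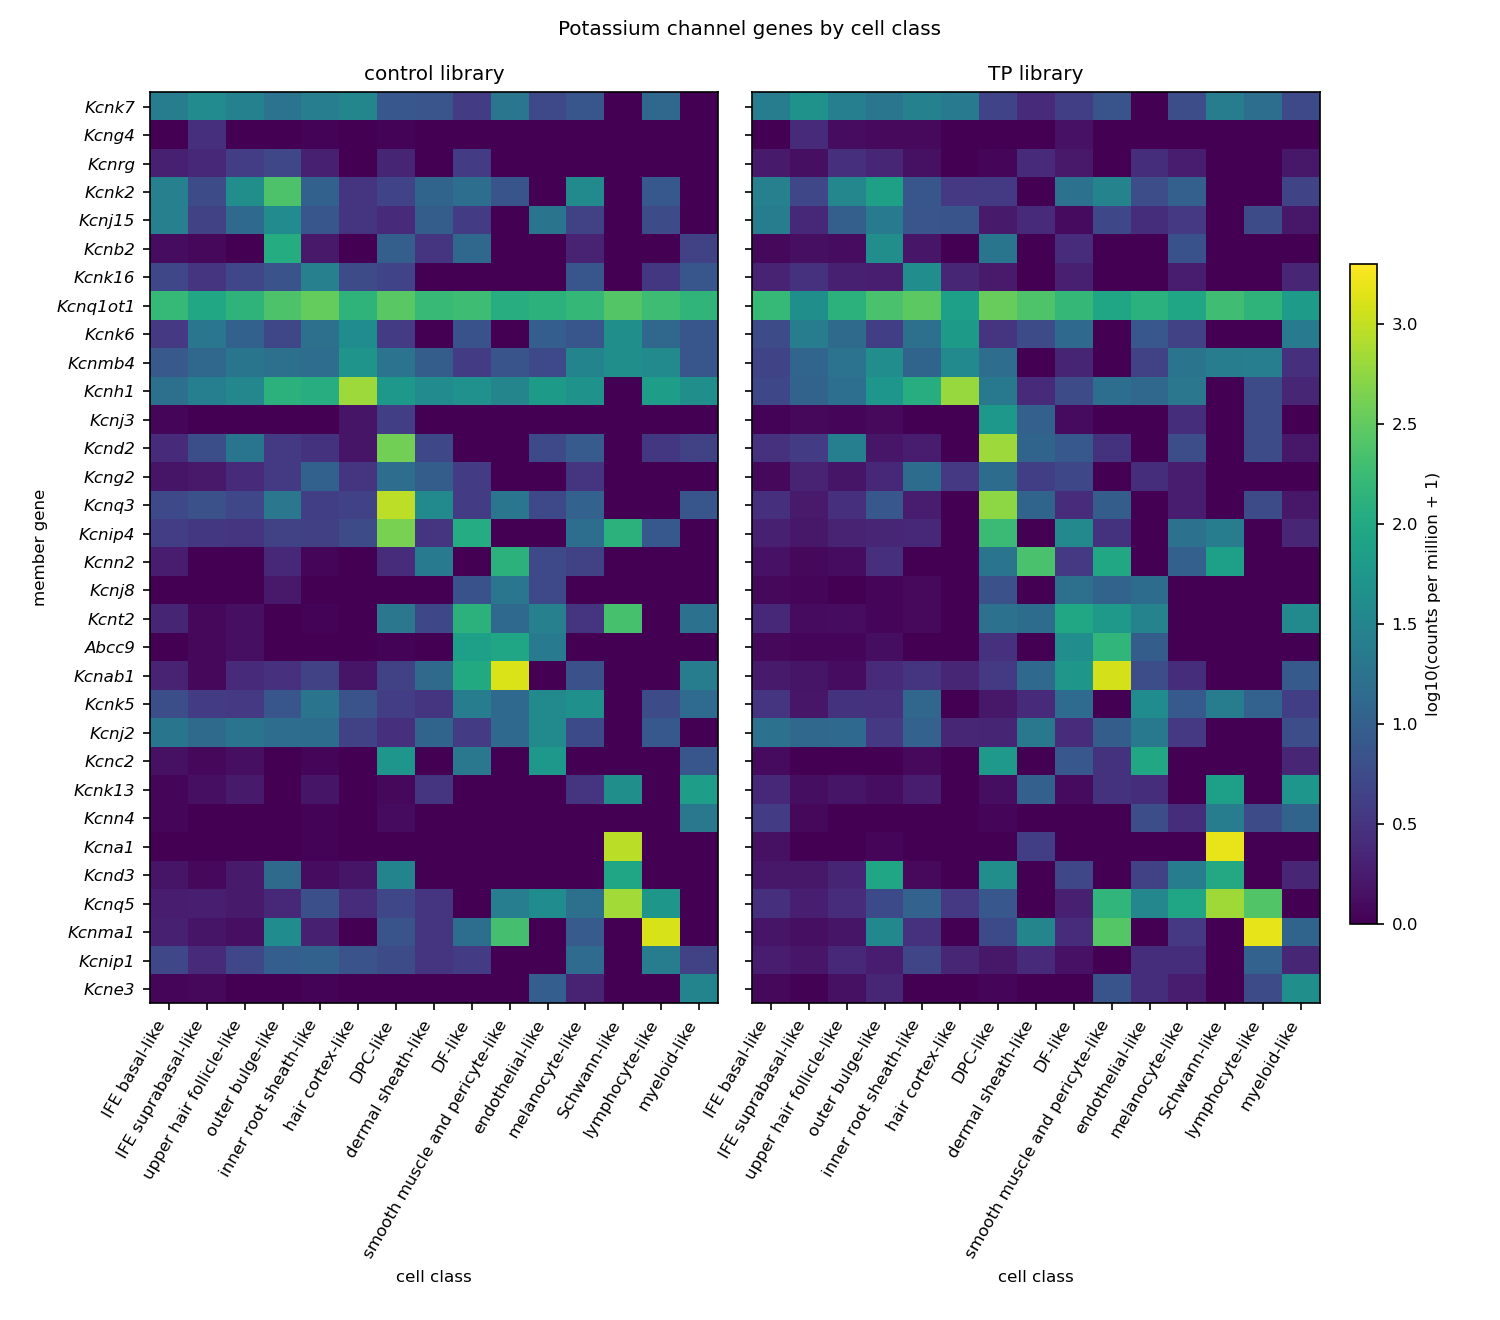
Level of the members described singly (rows) in each named class (columns) in the control and TP libraries, shown as log10 of CPM plus 1 on a common colour scale. Kcnd2, Kcnq3 and Kcnip4 stand out in the DPC-like column, Kcnab1 in the smooth muscle and pericyte-like column, Kcnma1 in the lymphocyte-like column and Kcna1 in the Schwann-like column, in both libraries.

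RefSeq sequence upstream of annotated starts was available for 52 of the 71 members, in 75 windows of 250 bases (build GRCm38.p6, the build of the deposited counts). Shown here are windows of the members whose levels in DPC-like cells or in KATP-bearing cells the results turn on. They are written 5' to 3' in the direction of the gene, in lower case, with capitals marking matches to AGAACA or TGTTCT (a short part of the element bound by androgen and glucocorticoid receptors, read on both strands) and to GGGCGG or CCGCCC (the GC box bound by Sp1-type factors, likewise). The full steroid receptor element was not searched for.

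Kcnd2 (chr6:21215096-21215345, plus strand): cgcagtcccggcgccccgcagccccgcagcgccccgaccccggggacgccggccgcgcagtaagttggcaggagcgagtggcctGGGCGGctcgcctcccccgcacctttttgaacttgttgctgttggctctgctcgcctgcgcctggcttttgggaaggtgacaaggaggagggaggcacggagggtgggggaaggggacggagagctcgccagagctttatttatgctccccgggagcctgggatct
Kcnip4 (chr5:48599683-48599932, minus strand): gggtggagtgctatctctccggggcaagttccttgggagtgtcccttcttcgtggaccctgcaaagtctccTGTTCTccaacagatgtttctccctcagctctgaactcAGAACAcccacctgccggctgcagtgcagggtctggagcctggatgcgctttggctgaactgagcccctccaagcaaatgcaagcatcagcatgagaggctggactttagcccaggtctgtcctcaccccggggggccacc
Kcnj3 (chr2:55435720-55435969, plus strand): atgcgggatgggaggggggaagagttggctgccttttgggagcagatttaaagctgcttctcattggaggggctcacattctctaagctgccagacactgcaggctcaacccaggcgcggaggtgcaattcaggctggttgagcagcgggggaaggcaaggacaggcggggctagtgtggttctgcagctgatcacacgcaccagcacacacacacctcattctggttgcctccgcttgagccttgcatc
Kcnj8 (chr6:142571615-142571864, minus strand): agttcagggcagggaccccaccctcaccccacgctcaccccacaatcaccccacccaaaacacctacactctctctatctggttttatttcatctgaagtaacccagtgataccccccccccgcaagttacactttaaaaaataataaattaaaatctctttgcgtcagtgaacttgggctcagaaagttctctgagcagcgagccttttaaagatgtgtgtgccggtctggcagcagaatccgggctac
Abcc9 (chr6:142702275-142702524, minus strand): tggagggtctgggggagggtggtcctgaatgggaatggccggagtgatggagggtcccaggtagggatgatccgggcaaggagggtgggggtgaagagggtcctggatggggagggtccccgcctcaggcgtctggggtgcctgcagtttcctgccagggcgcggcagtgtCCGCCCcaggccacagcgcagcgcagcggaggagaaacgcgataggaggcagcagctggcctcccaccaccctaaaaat

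The starts of Kcnip4, Kcnj3 and Abcc9 shown lie inside the RefSeq span of the gene. The Kcnip4 window shown is 1 of 2, chosen because it holds the motif, and the other, upstream at chr5:49285660-49285909, holds none. The Kcnip4 window shown holds a match to each orientation of that short part of the steroid receptor element, the Kcnd2 and Abcc9 windows each hold 1 GC box, and those of Kcnj3 and Kcnj8 hold neither motif. Over all members with a window, 9 of 75 windows (12%), from 7 of 52 members, held AGAACA or TGTTCT, against 16.1% of the 32851 windows of all genes. These members are Kcnab1, Kcnc2, Kcnip4, Kcnk10, Kcnk2, Kcnmb4 and Kcnmb4os2. The GC box was found in 41.3% of member windows and 32.7% of all windows, and TATAAA or TTTATA in 2.67% and 12.4%. A match is a string of letters and not a binding site.

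Among the pore-forming Kv subunits, Kcnq3 and Kcnd2 had most of their UMIs in DPC-like cells. Kcnq3 (chromosome 15, 65986374 to 66286636), which forms the M-current with other Kcnq subunits, was measured in DPC-like cells at 945.2 CPM (11083 UMIs) in the control library and 544.4 CPM (5037 UMIs) in the TP library, and these cells held 95.1% of all its UMIs. Its ratio of TP over control in the class was 0.576 (0.557 to 0.596). In the Luzp2-led cluster Kcnq3 was at 1213.8 and 579.6 CPM, a ratio of 0.478 (0.460 to 0.496), whereas in the Syt6-led cluster it was at 648.3 and 694.8 CPM, a ratio of 1.07 (0.993 to 1.16) whose interval includes 1. Within the Luzp2-led cluster the finer clusters differed in direction, with Kcnq3 at 1522.2 and 1797.0 CPM in Rxfp2-led cells (1.18, 1.12 to 1.25) and at 597.3 and 383.0 CPM in Sncb-led cells (0.641, 0.596 to 0.691). Of the finer clusters outside it, Lypd1-led cells (1339 control and 182 TP) had Kcnq3 at 748.3 and 743.4 CPM (0.993, 0.918 to 1.07) and finer Syt6-led cells (921 and 108) at 353.3 and 181.9 CPM (0.515, 0.351 to 0.733). In each library Kcnq3 was higher in the Rxfp2-led than in the Sncb-led cells.

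Kcnd2 (chromosome 6, 21215346 to 21729805), the pore of Kv4.2 channels that carry the fast transient A-type current, was at 397.7 CPM (4663 UMIs) in control and 662.9 CPM (6133 UMIs) in TP DPC-like cells, a ratio of 1.67 (1.60 to 1.73). DPC-like cells held 93.6% of its UMIs. Unlike Kcnq3, it was higher in TP by a like factor in both large clusters, at 516.7 and 777.4 CPM in Luzp2-led cells (1.504, 1.44 to 1.57) and 264.5 and 398.3 CPM in Syt6-led cells (1.51, 1.36 to 1.67). It was likewise higher in Rxfp2-led (1.42, 1.30 to 1.54) and in Sncb-led cells (1.39, 1.30 to 1.49). Over the whole library Kcnd2 was at 46.6 and 49.2 CPM (1.06, 1.02 to 1.10), and at the control library's cluster shares the ratio was 1.47.

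Kcnip4 (chromosome 5, 48389503 to 49525122) encodes a calcium-binding KChIP protein that associates with Kv4 pores such as that of Kcnd2, and it too had most of its UMIs (88.5%) in DPC-like cells. Its level there was 437.9 CPM (5135 UMIs) in the control library and 178.6 CPM (1652 UMIs) in the TP library, a ratio of 0.408 (0.386 to 0.431), opposite in direction to that of Kcnd2. In Luzp2-led cells Kcnip4 was at 722.4 and 215.5 CPM (0.298, 0.281 to 0.316), and in Syt6-led cells at 115.7 and 89.4 CPM (0.772, 0.623 to 0.9495). Within the Luzp2-led cluster Kcnip4 was at 832.7 and 732.7 CPM in Rxfp2-led cells (0.88, 0.811 to 0.954) and at 585.8 and 134.4 CPM in Sncb-led cells (0.230, 0.209 to 0.252). Both Kcnip4 and Kcnd2 were lower in Syt6-led than in Luzp2-led cells in each library. RefSeq gives Kcnip4 a span of 1135620 bases and Kcnd2 a span of 514460 bases. The sources used here do not give whether reads in introns were counted, which bears on the level of such long genes.

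The share of DPC-like cells with a UMI was compared after thinning every cell to 1000 UMIs, since TP DPC-like cells held more UMIs (median 4485.5 against 2414). This left out 351 control and 88 TP cells of the class. Kcnd2 was then found in 24.4% of control and 32.8% of TP DPC-like cells (40.2% and 54.1% without thinning), and Kcnq3 in 46.6% and 29.9% (62.6% and 53.1%). Kcnip4 was found in 17.8% and 6.52% (28% and 12.8%). In IFE suprabasal-like cells, which serve as a background for free RNA (median 6746 UMIs in control and 14919 in TP), thinned shares were 0.553% and 0.342% for Kcnd2 and 0.553% and 0.205% for Kcnq3. Kcnip4 was found there in 0.138% of control cells and in 0 of 1464 TP cells, which at this thinned depth allows up to 0.205% (3 counts) or 0.252% (Clopper-Pearson). Without thinning, Kcnip4 was found in 1.80% and 1.16% of these cells. IFE suprabasal-like cells were the deepest named class in both libraries. If droplets take up like amounts of free RNA, thinning removes more of it from them than from shallower cells. Their thinned shares, here and below, may thus understate the background in DPC-like and other shallower cells, which was not tested.

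**Figure D2:**
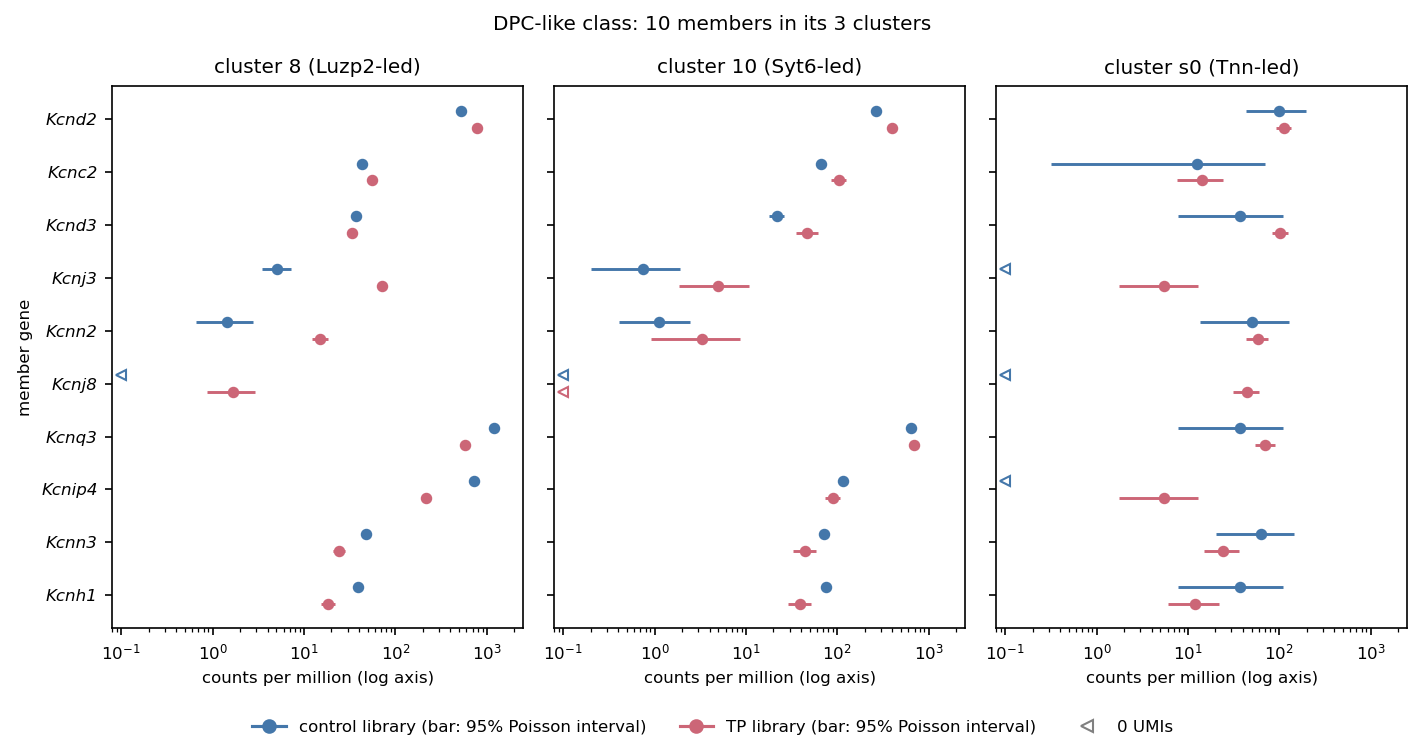
CPM (log axis) of 10 members in the Luzp2-led, Syt6-led and Tnn-led clusters of the DPC-like class, control and TP libraries, with exact 95% Poisson intervals as bars and open triangles for 0 UMIs. Kcnd2 was higher in TP in both large clusters, whereas Kcnq3 and Kcnip4 differed most in the Luzp2-led one, where Kcnq3 was at 1213.8 and 579.6 CPM.

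Other Kv pores were also found in DPC-like cells at lower levels. Kcnc2, a fast Kv3 channel, was at 53.8 and 57.8 CPM there (1.07, 0.956 to 1.21) and at 57.3 and 95.4 CPM in endothelial-like cells on 13 and 56 UMIs. Kcnd3, the pore of Kv4.3, was at 29.9 CPM (351 UMIs) in control and 41.9 CPM (388 UMIs) in TP DPC-like cells (1.401, 1.21 to 1.62). By cluster Kcnd3 was at 37.0 and 33.5 CPM in Luzp2-led cells and at 21.7 and 46.8 CPM in Syt6-led cells, with a ratio of 1.79 (1.34 to 2.36) in the Rxfp2-led and 0.857 (0.627 to 1.19) in the Sncb-led part of the former. Kcng2, a silent modifier subunit of Kv2 channels, had its highest level in the Acsm3- and Krt82-led cluster, at 45.1 CPM in control and 89.8 CPM in TP (1.99, 1.47 to 2.70).

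Kcnh1 (chromosome 1, 192189144 to 192510159), the pore of the ether-a-go-go channel Kv10.1, was the most abundant channel subunit of the tables and was found in hair-forming epithelium. It reached 803.6 CPM (5671 UMIs) in control and 735.4 CPM (1156 UMIs) in TP in the Selenbp1- and Dsg4-led cluster, 732.4 and 601.7 CPM in the Acsm3- and Krt82-led cluster, and 648.2 and 624.4 CPM in hair cortex-like cells. The ratio in hair cortex-like cells was 0.963 (0.866 to 1.07) and that in the Selenbp1-led cluster 0.915 (0.858 to 0.975). Over the whole library, by contrast, Kcnh1 was at 152.0 CPM (16157 UMIs) in control and 51.2 CPM (6851 UMIs) in TP, a ratio of 0.337 (0.327 to 0.346). Where each cluster was given the share of UMIs it has in the control library, that ratio was 0.808. The Selenbp1-led cluster held 2810 control and 290 TP cells. In classes where Kcnh1 is low its ratio was also well below 1, at 0.267 in IFE basal-like and 0.407 in IFE suprabasal-like cells. After thinning, 44.5% of control and 48.5% of TP hair cortex-like cells had a Kcnh1 UMI (78.5% and 85.3% without thinning), against 2.49% and 0.615% of IFE suprabasal-like cells.

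Of the other Kv pores, Kcna1 and Kcnq5 had their highest level in Schwann-like cells. Kcna1, a Kv1 channel best known from axons, was at 915.7 CPM (21 UMIs) and 1530.8 CPM (63 UMIs) in Schwann-like cells, and these 16 control and 22 TP cells held 84% of its UMIs. Kcnq5, another M-current subunit, was at 697.7 and 680.3 CPM in Schwann-like cells on 16 and 28 UMIs. The largest share of its control UMIs (22.96%) was in inner root sheath-like cells, at 5.46 CPM (73 UMIs). Kcnq5 was higher in TP in several other classes, at 15.6 and 89.7 CPM in melanocyte-like cells (5.75, 3.28 to 10.9). In smooth muscle and pericyte-like cells it was at 24.9 and 145.5 CPM on 4 and 70 UMIs (5.84, 2.18 to 22.0). It was lower in TP in the Shh-led cluster, on 24 and 1 UMIs (0.113, 0.00274 to 0.692). In the Slc6a13- and Krtap24-1-led cluster it was also lower, on 20 and 4 UMIs (0.112, 0.02775 to 0.333). In both melanocyte-like clusters Kcnq5 was higher in TP, at 21.3 and 166.3 CPM in Fstl4-led cells (7.83, 3.65 to 18.2) and 9.37 and 78.1 CPM in Npy-led cells (8.33, 3.13 to 31.3). In lymphocyte-like cells most Kcnq5 UMIs (18 and 50) were in the Gzmc-led cluster, at 272.5 and 548.1 CPM (2.01, 1.15 to 3.66). Kcng4, a silent subunit, was found in IFE suprabasal-like cells on 10 and 39 UMIs.

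Of the other accessory subunits, Kcnab1, the Kvbeta1 subunit of Kv1 channels (chromosome 3, 64949212 to 65378225), was the most abundant member of smooth muscle and pericyte-like cells. It was measured there at 1277.6 CPM (205 UMIs) in control and 1228.6 CPM (591 UMIs) in TP, a ratio of 0.962 (0.819 to 1.13), and after thinning in 55.1% and 50.5% of cells (75% and 71.3% without thinning, medians of 2538 and 3681 UMIs), against 0 of 724 control and 0.0683% of TP IFE suprabasal-like cells. In DF-like cells Kcnab1 was at 100.9 and 55.5 CPM. Kcnip1, a second KChIP protein, was highest in the Shh-led cluster, where it was at 187.4 CPM (1290 UMIs) in control and 102.7 CPM (261 UMIs) in TP (0.548, 0.478 to 0.626). Kcne3, a small subunit that holds Kcnq1 channels open, was at 29.7 CPM (9 UMIs) and 43.5 CPM (69 UMIs) in myeloid-like cells. The ratio of Kcne3 was 1.47 there, with an interval (0.730 to 3.34) that includes both 1 and the whole-library ratio of 3.12.

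The KATP genes Kcnj8 (Kir6.1, chromosome 6, 142564837 to 142571614) and Abcc9 (SUR2, chromosome 6, 142587862 to 142702766) are neighbours, with 16248 bases and no other gene of the annotation between them, and together they form the vascular type of KATP channel. Over the whole library Kcnj8 had 11 control and 188 TP UMIs (0.104 and 1.404 CPM, 13.6-fold, 7.41 to 27.7). Abcc9 had 72 and 322 UMIs (0.677 and 2.41 CPM, 3.55-fold, 2.74 to 4.65). At the control library's cluster shares, the ratio was 3.03 for Kcnj8 and 0.733 for Abcc9, so that the direction for Abcc9 turned. The alternative pore and receptor, Kcnj11 and Abcc8, are not members. Kcnj11 had 0 UMIs in control and 1 in TP, and Abcc8 had 4 and 14 before filtering.

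By class, Abcc9 was found in mesenchymal cells. In smooth muscle and pericyte-like cells it was at 87.3 CPM in control (14 UMIs, 47.7 to 146.4) and 145.5 CPM in TP (70 UMIs, 113.4 to 183.9), intervals that overlap. In DF-like cells Abcc9 was at 72.1 CPM (25 UMIs) and 40.7 CPM (174 UMIs), a ratio of 0.565 (0.370 to 0.897), and in a small Angptl7-led cluster at 89.6 CPM (7 UMIs) and 71.9 CPM (40 UMIs). That cluster scored for DF markers (2.42) but was left unnamed because Angptl7, an outer bulge marker, was among its 10 leading genes. The DF-like class was 125 control and 542 TP cells, and it held 54.0% of the Abcc9 UMIs of the TP library. By cluster, Abcc9 was at 122.4 and 47.0 CPM in the Myo16-led DF-like cells, and at 44.1 and 42.0 CPM in the Creb3l3-led ones. In none of the smooth muscle and pericyte-like, DF-like and Angptl7-led cells was the Abcc9 ratio as high as the 3.55 of the whole library.

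Kcnj8 had its highest level in the Angptl7-led cluster, at 38.4 CPM (3 UMIs) in control and 82.7 CPM (46 UMIs) in TP. In smooth muscle and pericyte-like cells, where Abcc9 was highest, Kcnj8 stayed under the 10 UMIs needed for ranking over both libraries together. In DF-like cells it was at 5.77 CPM (2 UMIs) and 15.4 CPM (66 UMIs), with a ratio of 2.68 and an interval of 0.713 to 22.6. Of these, 2 control and 55 TP UMIs were in the Creb3l3-led cluster, where Kcnj8 was at 22.0 and 24.8 CPM, a ratio of 1.13 (0.298 to 9.54). In DPC-like cells Kcnj8 was not detected in control, on 0 UMIs, and had 52 UMIs in TP (5.62 CPM), a ratio of at least 22.0 when 3 UMIs per library are taken as the floor, with an exact interval that begins at 17.2. Of those 52 UMIs, 40 were in the Tnn-led cluster, where Kcnj8 was at 43.9 CPM in TP and where only 40 control cells were found, 12 were in the Luzp2-led cluster and 0 in the Syt6-led cluster. Without the Tnn-led cluster the TP level of Kcnj8 in DPC-like cells was 1.44 CPM. Abcc9 had 1 control UMI and 18 TP UMIs in DPC-like cells, and all 18 of the latter were in the Tnn-led cluster.

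**Figure D3:**
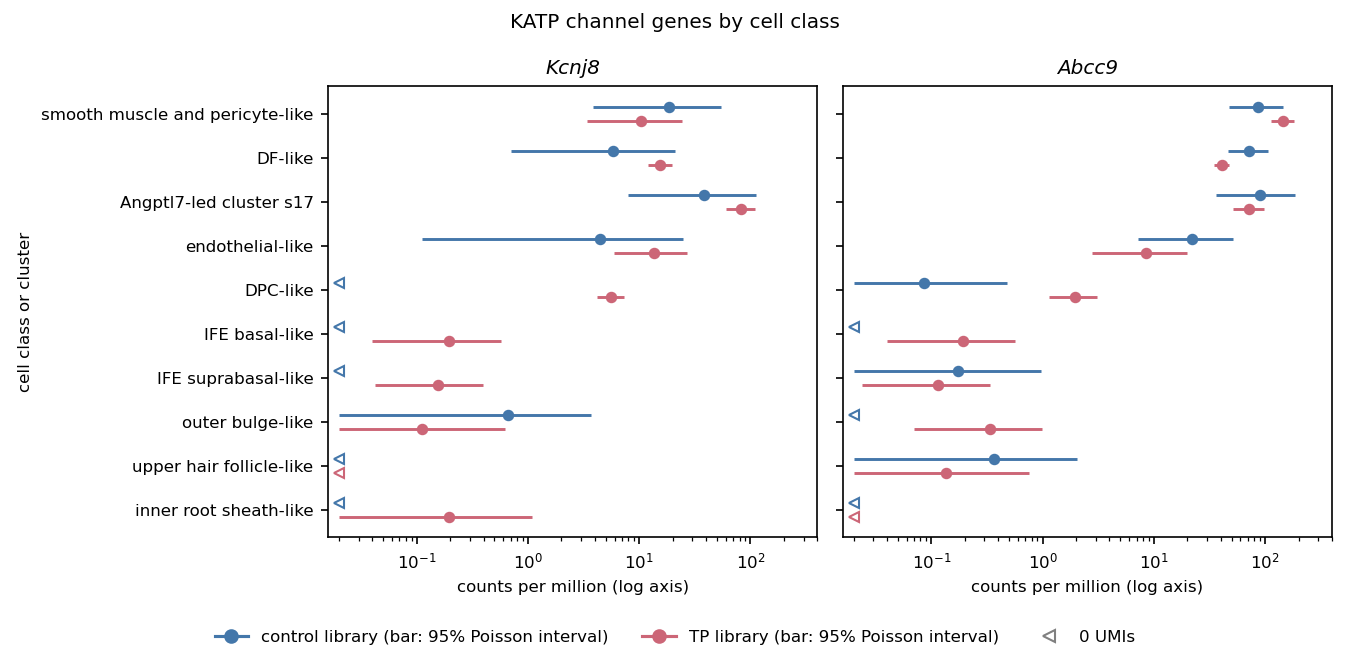
CPM (log axis) of Kcnj8 and Abcc9 by class or cluster in the control and TP libraries, with exact 95% Poisson intervals and open triangles for 0 UMIs. Abcc9 lies between 40.7 and 145.5 CPM in the smooth muscle and pericyte-like, DF-like and Angptl7-led cells of both libraries, and both genes lie near 0 in the epithelial classes.

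Among the other inward rectifiers, Kcnj3, the Kir3.1 (GIRK1) subunit of channels opened by G protein-coupled receptors, differed most between the libraries. In DPC-like cells it had 36 control UMIs (3.07 CPM) and 517 TP UMIs (55.9 CPM), 18.2-fold higher in TP (12.97 to 26.3), and this class held 94.9% of its UMIs. Within the Luzp2-led cluster Kcnj3 was at 5.13 and 70.8 CPM, 13.8-fold higher (9.66 to 20.4), and within the Syt6-led cluster it had 4 and 6 UMIs (6.77-fold, 1.61 to 32.6). It was also higher in both finer clusters of the Luzp2-led cells, at 3.17 and 23.2 CPM in Rxfp2-led cells (7.31-fold, 3.55 to 15.7) and 10.3 and 79.6 CPM in Sncb-led cells (7.69-fold, 4.81 to 13.1). These factors were smaller than that of the class as a whole. In the finer Lypd1-led cells Kcnj3 had 4 and 2 UMIs (1.83, 0.166 to 12.8), an interval that includes 1, and in the finer Syt6-led cells 0 and 4 UMIs. Kcnj15 and Kcnj2, of the Kir4 and Kir2 types, were found in epidermis and elsewhere, with 26.4 and 24.2 CPM for Kcnj15 and 18.4 and 16.5 CPM for Kcnj2 in IFE basal-like cells. In control Kcnj15 was highest in outer bulge-like cells, at 38.6 CPM (58 UMIs). Over both libraries together Kcnj15 was highest in the Vat1l-led cluster (26.7 CPM) and Kcnj2 in endothelial-like cells (24.6 CPM). In IFE suprabasal-like cells Kcnj15 had 19 control UMIs (3.32 CPM) and 34 TP UMIs (1.31 CPM), a ratio of 0.395 (0.219 to 0.733), and Kcnj2 was at 12.8 and 12.1 CPM (0.949, 0.734 to 1.24).

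Of the K2P channels, Kcnk2 (TREK-1, chromosome 1, 189207930 to 189402782), a mechanically gated background channel, was highest in outer bulge-like cells. It was measured there at 238.0 CPM (358 UMIs) in control and 74.4 CPM (660 UMIs) in TP, a ratio of 0.313 (0.274 to 0.356). After thinning, 21.1% of control and 7.75% of TP outer bulge-like cells had a Kcnk2 UMI (32% and 20.2% without thinning), against 0.414% and 0.751% of IFE suprabasal-like cells. Over the whole library Kcnk2 was 1.15-fold higher in TP, and 0.803-fold at the control library's cluster shares.

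Kcnk7, a K2P member for which no current of its own is known, had its highest level in IFE suprabasal-like cells, and Kcnk6 (TWIK-2) in hair cortex-like cells. Both were found widely. In control the largest share of their UMIs was in inner root sheath-like cells (15.89% for Kcnk7 and 21.35% for Kcnk6). In TP it was in IFE suprabasal-like cells (36.27% and 38.99%). Kcnk7 was at 38.1 CPM (218 UMIs) and 46.8 CPM (1215 UMIs) in IFE suprabasal-like cells (1.23, 1.06 to 1.43), and Kcnk6 at 18.5 and 23.7 CPM there and 38.9 and 62.6 CPM in hair cortex-like cells. Kcnk16 (TALK-1), an alkaline-activated channel, was at 26.7 CPM (357 UMIs) and 41.0 CPM (208 UMIs) in inner root sheath-like cells, 1.53-fold higher in TP (1.29 to 1.83), although its whole-library ratio was 0.377. Kcnk5 (TASK-2) was at 41.3 and 42.0 CPM in the Trpm8-, Wnt11- and Fgf5-led cluster, and at 44.6 CPM (40 UMIs) and 7.54 CPM (9 UMIs) in melanocyte-like cells, a ratio of 0.169. In the Fstl4-led melanocyte-like cells Kcnk5 had 31 control and 1 TP UMIs and in the Npy-led ones 9 and 8. Its whole-library level was 11.9 and 3.34 CPM (0.282, 0.252 to 0.314). Kcnk13 (THIK-1), known from microglia and macrophages, was at 69.2 CPM (21 UMIs) and 53.0 CPM (84 UMIs) in myeloid-like cells, and in the Cd209f-led cluster of that class at 111.2 and 61.7 CPM (0.554, 0.320 to 1.02).

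Among calcium-activated channels, Kcnma1 (chromosome 14, 23292288 to 24005110), the pore of the large-conductance BK channel, was highest in lymphocyte-like cells and not in smooth muscle, where it is best known. It was at 1268.0 CPM (529 UMIs) in control and 1518.3 CPM (308 UMIs) in TP lymphocyte-like cells, 1.20-fold higher (1.04 to 1.38), and at 211.9 and 268.2 CPM in smooth muscle and pericyte-like cells. The lymphocyte-like class was 226 control and 83 TP cells, most of them (195 and 49) in a cluster led by Themis, Trdv4 and Trdc, of which Trdc encodes the constant part of the delta T cell receptor chain. That cluster held 528 of the 529 control and all 308 TP Kcnma1 UMIs of the class. Within it Kcnma1 was at 1503.6 and 2759.0 CPM, 1.83-fold higher in TP (1.59 to 2.12), a wider gap than in the class as a whole. After thinning, 62.6% and 53.9% of lymphocyte-like cells had a Kcnma1 UMI (73.9% and 57.8% without thinning, medians of 1522.5 and 2011 UMIs), against 0 of 724 control and 0 of 1464 TP IFE suprabasal-like cells, which at this thinned depth allows up to 0.414% and 0.205% (3 counts) or 0.508% and 0.252% (Clopper-Pearson). Without thinning, Kcnma1 was found in 0.276% and 0.410% of the latter cells. Kcnmb4, the neuronal-type BK beta subunit, was highest in the Vat1l-led cluster, at 104.3 and 85.2 CPM. Both Kcnma1 and Kcnmb4 were also found in outer bulge-like cells, described below.

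Kcnn2, a small-conductance (SK2) channel, was at 21.2 CPM (10 UMIs) in control and 223.6 CPM (146 UMIs) in TP in dermal sheath-like cells, 10.5-fold higher (5.57 to 22.4). In DPC-like cells Kcnn2 was at 1.62 CPM (19 UMIs) and 17.7 CPM (164 UMIs), 10.9-fold higher (6.79 to 18.6), in the Luzp2-led cluster alone 10.4-fold higher (5.27 to 23.3), in its Sncb-led part 9.73-fold higher (3.24 to 48.0), and in its Rxfp2-led part at a ratio of 2.07 on 6 and 3 UMIs, with an interval (0.334 to 9.68) that includes 1. In smooth muscle and pericyte-like cells it was at 130.9 and 93.6 CPM, so that the higher level of Kcnn2 in TP was not shared by every class that expressed it. Kcnn4, the intermediate-conductance channel of immune and epithelial cells, had 6 and 17 UMIs in myeloid-like cells and 1 and 44 UMIs in IFE basal-like cells, a ratio of 21.1 with an interval of 3.60 to 853. Kcnt2, a sodium-activated Slo2 channel, was at 132.6 CPM (46 UMIs) and 94.5 CPM (404 UMIs) in DF-like cells, and in the Myo16-led ones at 218.5 and 230.0 CPM (1.05, 0.671 to 1.71).

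Of the members that encode no subunit, Kcnq1ot1 (chromosome 7, 143213111 to 143296547), the long non-coding RNA of the imprinted Kcnq1 locus and antisense to Kcnq1, was found in all classes. It had 26360 control UMIs (248.0 CPM) and 21023 TP UMIs (157.0 CPM), a ratio of 0.633 (0.622 to 0.645), and 0.920 at the control library's cluster shares. In DPC-like cells Kcnq1ot1 was at 286.6 and 341.4 CPM. Kcnq1 itself had 51 and 91 UMIs, far fewer than its antisense RNA. Kcnrg, a regulator of Kv1 assembly, had 8 and 14 UMIs in upper hair follicle-like cells. Kcnmb4os2 and Kcnab3os had 280 and 45 UMIs over both libraries.

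Over the whole library, 67 of the 71 members had at least 50 UMIs in kept cells and were compared, calling a gene higher or lower in TP at a difference of at least 2-fold in CPM (a log2 ratio of 1 or more with 1 UMI added to each library). Of these, 9 members (13.4%) were higher in TP, against 8.15% of the 17549 genes compared in the same way. They were Kcnj3, Kcnn2, Abcc9, Kcnj8, Kcnd3, Kcnk3, Kcna1, Kcnn4 and Kcne3. By contrast, 16 members (23.9%) were lower in TP, against 10.3% of all genes, among them Kcnh1, Kcnq3, Kcnip4, Kcnip1, Kcnk5, Kcnk16 and Kcnn3. Of the higher members, Kcnj3, Kcnj8, Kcnk3, Kcna1, Kcnn4 and Kcne3 had under 50 UMIs in control and reached the minimum only with those of TP. Of the lower members, Kcng1, Kcnmb2, Kcna7, Kcnj14 and Kcne1 had under 50 UMIs in TP and reached it only with those of control. These counts are therefore descriptions. The median log2 ratio was -0.19 over the members and -0.24 over all genes compared. By type, both KATP genes were higher. Of the K2P channels 1 of 10 was higher and 4 lower, of the Kv pores 2 of 25 higher and 5 lower, and of the Kv accessory subunits 1 of 10 higher and 3 lower. Of the calcium-activated channel genes 2 of 8 were higher and 2 lower, of the inward rectifiers 1 of 7 higher and 2 lower, and of the Slo-type channels and the 3 compared non-subunit genes none reached the limit.

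Most of these calls were not made once the mix of classes was held fixed. With each cluster weighted by its share of UMIs in the control library, 4 of the 9 members were still at least 2-fold higher (Kcnj3, Kcnj8, Kcnn4 and Kcnn2) and 4 of the 16 still at least 2-fold lower (Kcnip4, Kcnip1, Kcnmb2 and Kcnj14), and no other member passed. Of these, Kcnj8 and Kcnn4 had only 11 and 16 control UMIs, and Kcnmb2 and Kcnj14 only 16 and 17 TP UMIs. Ratios at the control library's shares have no counting interval. Calls were also fewer over all genes at these shares, with 2.75% higher and 3.05% lower. Kcnh1 moved from a ratio of 0.337 to 0.808, Kcnk5 from 0.282 to 0.602, Kcnq3 from 0.362 to 0.659 and Kcnd3 from 2.57 to 1.89. Kcnd2 moved the other way, from 1.06 to 1.47. With TMM scaling, under which the median of all genes was 0.02 in place of -0.24, 14 members were higher and 13 lower, against 11.3% and 5.86% of all genes. That is 51.9% of calls in the higher direction against 36% under plain CPM. With 1 library per group no test of these differences was possible, and a difference between pools of mice cannot be told apart from one between treatments.

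**Figure D4:**
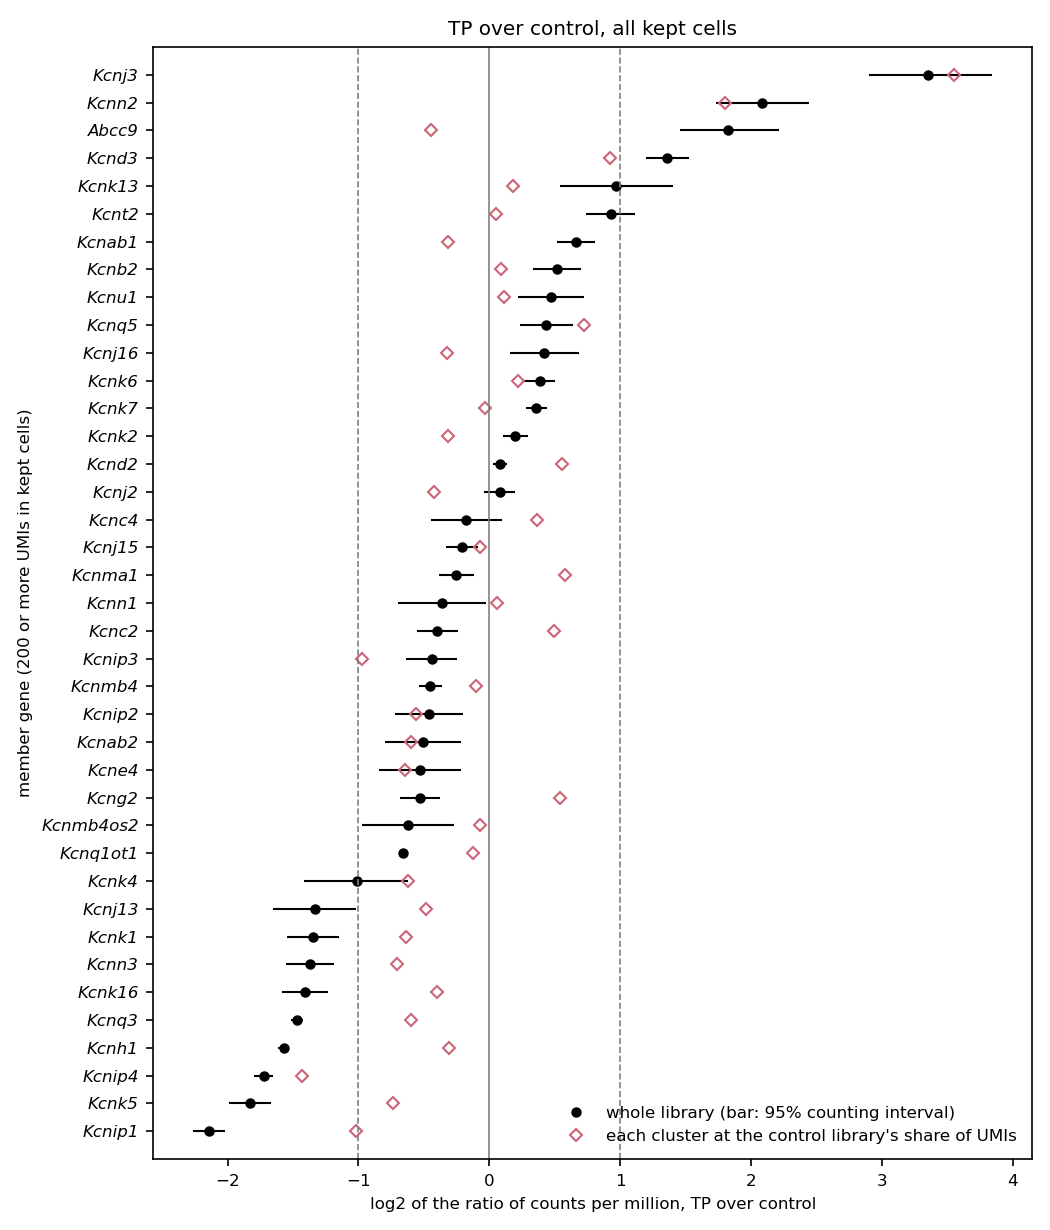
Log2 ratio of CPM, TP over control, of the reported members with at least 200 UMIs in kept cells (filled points, bars are exact 95% counting intervals) and the same ratio with each cluster at the control library's share of UMIs (open diamonds). Dashed lines mark 2-fold. Kcnj3 stays at the right (11.7-fold at control shares) while Abcc9, Kcnh1 and Kcnk5 move toward or past 0.

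Within DPC-like cells 34 members had at least 50 UMIs. Of these 4 (11.8%) were at least 2-fold higher in TP, against 3.95% of the 12874 genes compared in the class, namely Kcnj3, Kcnn2, Kcnj8 and Kcnb2. Another 6 (17.6%) were at least 2-fold lower, against 7.54%, namely Kcnip4, Kcnn3, Kcnh1, Kcne4, Kcnip1 and Kcnk16. Kcnj3, Kcnn2 and Kcnj8 had under 50 UMIs in control and reached the minimum only through the TP library, and Kcnip1 and Kcnk16 reached it mostly through the control library, with at most 7 TP UMIs each, so these counts are descriptions. Kcnj8, Kcne4 and Kcnk16 were no longer called without the Tnn-led cluster. In the Luzp2-led cluster alone 24 members were compared. Kcnj3, Kcnn2 and Kcnk10 were then called higher, and Kcnip4, Kcnh1, Kcnq3 and Kcnk7 lower, so that Kcnk10, Kcnq3 and Kcnk7 were called only there. With at most 5% mitochondrial counts 3 of 31 members were higher and 4 lower, the calls of Kcnb2, Kcnip1 and Kcnk16 being lost, and with TMM scaling in the class that of Kcne4 was lost. For the Luzp2-led cluster alone and for these settings, the share over all genes was not computed. Their counts therefore cannot be set against genes at large. In the reported setting, the median log2 ratio was -0.30 over the 34 members and -0.10 over all genes of the class. Kcnn3, the SK3 channel, was at 59.1 CPM (693 UMIs) in control and 26.7 CPM (247 UMIs) in TP, opposite in direction to its relative Kcnn2, and was lower in both large clusters (0.503 in Luzp2-led and 0.615 in Syt6-led cells). Within the former its ratio was 0.519 (0.343 to 0.760) in Rxfp2-led and 0.826 (0.593 to 1.17) in Sncb-led cells. Kcne4, a small subunit, had a class ratio of 0.488, with 1.71 (0.9851 to 3.04) in Luzp2-led and 0.497 in Syt6-led cells.

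Some of the genes lower in TP DPC-like cells have their highest levels in other cells. Kcnh1 was at 55.9 and 20.5 CPM in DPC-like cells, with a ratio of 1.57 (1.16 to 2.09) in the Rxfp2-led and 0.298 in the Sncb-led cells, Kcnip1 had 54 and 6 UMIs and Kcnk16 43 and 7 UMIs. Markers of inner root sheath cells, which DPCs should lack, had a summed level of 2279.2 CPM in control and 438.7 CPM in TP DPC-like cells, and hair cortex markers 252.6 and 61.1 CPM. Outer bulge markers, by contrast, stood at 313.8 and 684.2 CPM in these cells, and Kcnb2, one of the members higher in TP, had its highest level in control in outer bulge-like cells. The part of these other-cell transcripts in the Kcnh1, Kcnip1, Kcnk16 and Kcnb2 values was not tested.

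Within outer bulge-like cells (619 control and 1636 TP cells of a single cluster, median 1863 and 3513 UMIs) 14 members had at least 50 UMIs. Of these 4 (28.6%) were at least 2-fold higher in TP, against 2.95% of the 10932 genes compared, and 4 (28.6%) at least 2-fold lower, against 4.35%. Kcnd3 was at 12.6 CPM (19 UMIs) in control and 88.1 CPM (782 UMIs) in TP, 6.98-fold higher (4.44 to 11.7). Kcnmb4 was at 15.3 CPM (23 UMIs) and 40.1 CPM (356 UMIs), 2.62-fold higher (1.72 to 4.19). Kcnu1, the Slo3 channel, had 5 and 71 UMIs (2.41, 0.984 to 7.64), an interval that includes 1. Kcnn3 had 0 control and 52 TP UMIs, a ratio of at least 2.94 against a floor of 3 UMIs and an exact interval that begins at 2.31. All 4 of these members had under 50 control UMIs and reached the minimum only through the TP library, where they are high, so their count is a description. With at most 5% mitochondrial counts 2 of 11 members were called higher, without Kcnn3 and Kcnu1, and without the barcodes that the libraries share 3 of 14, without Kcnu1. The share over all genes was not computed for these settings.

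The lower members of outer bulge-like cells were Kcnk2, described above, Kcnb2, Kcnh1 and Kcnq3. Kcnb2, the delayed rectifier Kv2.2 (chromosome 1, 15286925 to 15723751), was at 109.7 CPM (165 UMIs) in control and 41.2 CPM (366 UMIs) in TP (0.376, 0.312 to 0.455). Kcnh1 was at 129.7 and 52.6 CPM (0.406) and Kcnq3 at 19.3 and 6.87 CPM (0.357, 0.226 to 0.575). In the same cells inner root sheath markers had a summed level of 2807.8 and 570.9 CPM and hair cortex markers 316.5 and 63.3 CPM. DPC markers stood at 291.9 and 206.4 CPM and upper hair follicle markers at 434.2 and 951.8 CPM. Outer bulge markers themselves stood at 2786.5 and 2981.4 CPM, below IFE basal markers (7305.0 and 7418.7 CPM) and IFE suprabasal markers (2990.6 and 4636.4 CPM). Companion layer and medulla markers stood at 1940.8 and 2742.6 CPM. The part of other-cell transcripts in the Kcnh1 value, and in that of Kcnq3, a gene of DPC-like cells, was not tested. Kcnk2 had its highest level in this class in both libraries, and Kcnb2 in the control library. In TP, Kcnb2 was higher in the unnamed Acsm3- and Krt82-led cluster, at 51.0 CPM (46 UMIs), than in outer bulge-like cells. Kcnma1, at 39.2 and 33.7 CPM, differed little.

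**Figure D5:**
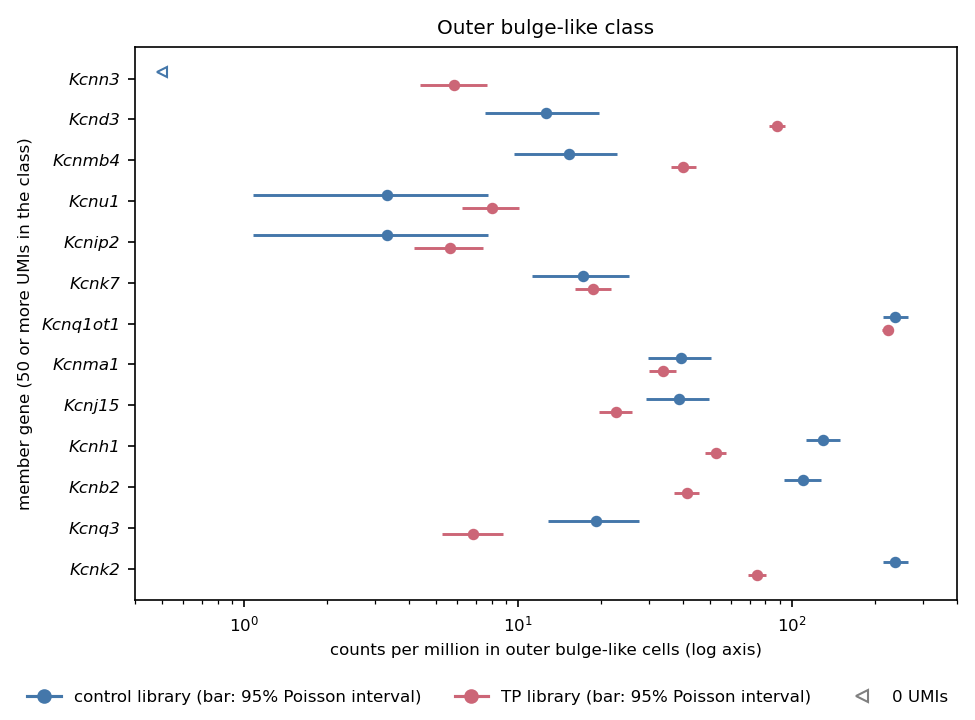
CPM (log axis) in outer bulge-like cells of the reported members with at least 50 UMIs in the class, control and TP libraries, with exact 95% Poisson intervals as bars and an open triangle for 0 UMIs. Kcnd3 (12.6 and 88.1 CPM) and Kcnk2 (238.0 and 74.4 CPM) lie far apart in opposite directions, while Kcnk7 and Kcnma1 have overlapping intervals.

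Genes that work beside potassium channels were compared over the whole library. Of 12 subunits and regulators of the sodium-potassium pump, which builds the potassium gradient, 3 were at least 2-fold higher in TP, among them Fxyd2 (5.68, or 1.66 at control cluster shares) and Fxyd4 (3.04, or 1.67), against 8.15% of all genes, and none lower, with a median log2 ratio of 0.41. Of 8 potassium chloride cotransporters and proton-potassium pumps none passed in either direction (median 0.09), and likewise of 6 potassium-conducting channels with other names and BK gamma subunits (median -0.20). Of 14 calcium entry genes 1 was lower, against 10.3% of all genes, and none higher (median -0.13). It was Piezo2, a mechanically gated channel, with a ratio of 0.468, or 0.729 at the control library's cluster shares.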

How the data were processed

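Libraries were GEM-X 3' v4. The authors deposited UMI counts per gene and barcode made with Cell Ranger 8.0.1 on mm10 (per the labels), raw whole counts that were not normalized. The counting of introns and of strand is not given in the sources used here, so an RNA and its antisense partner may not be fully separated. Here, a barcode was kept if it had between 200 and 8000 detected genes and no more than 10% of its UMIs from mitochondria, and 7.5% per library were removed as likely doublets by a nearest-neighbour score. Cells were integrated and clustered in Seurat 5.3.0 (R 4.3.3; 30 components, resolution 1, 1971 features without potassium channel genes), and 3664 stromal, immune and pigment cells were clustered again (20 components). Clusters were named by a mean marker z-score of at least 1.5, a margin of 0.25 and at least 3 markers, unless another class had more markers among the 10 leading genes or a cluster under 33.3% of its libraries' median UMIs per cell had none of its own there. The Tnn-led DPC-like cluster stood at 0.4045 of that median, and none of the DPC-like clusters had a DPC marker among its 10 leading genes. The outer bulge-like cluster likewise had no outer bulge marker among its own, and scored 1.91 for outer bulge and 1.38 for IFE basal markers. These naming limits and the second clustering were set after seeing the data. Summed counts gave ratios and intervals (scipy 1.17.1, tested on simulated data), and edgeR 4.0.16 the TMM factor only.

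The members, lists and comparisons were chosen with earlier results of these data known. Genes described singly were KATP genes, the 20 members with most UMIs, the 5 largest differences in each direction among members with at least 200 UMIs, and the 2 members most enriched in each class. Kcnn3, Kcne4, Kcnu1, Kcnq1, Kcnmb4os2 and Kcnab3os, and members listed in counts, were named after their values were seen. The study's group given a further treatment beside TP was not analysed here. A few genes are counted in the totals but not reported here.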

Additional observations from a re-analysis of the deposited data

Results flagged for a closer look

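The ratio of TP over control lay on opposite sides of 1 in DPC-like and outer bulge-like cells for 2 members, with intervals that do not overlap, and the difference was not tested because each group has 1 library. Kcnb2 was 2.06-fold (1.60 to 2.66) in DPC-like cells, where it had 104 control and 169 TP UMIs, and 0.376-fold (0.312 to 0.455) in outer bulge-like cells. In the Luzp2-led cluster, which held most Kcnb2 UMIs of the DPC-like class, the ratio was 1.48 (1.15 to 1.92), and within it 1.14 (0.647 to 1.91) in Rxfp2-led and 1.66 (1.09 to 2.62) in Sncb-led cells. Outer bulge markers in DPC-like cells stood at 313.8 CPM in control and 684.2 CPM in TP, and their part in the Kcnb2 value was not tested. Kcnn3 was at a ratio of 0.452 (0.389 to 0.523) in DPC-like cells and higher in outer bulge-like cells, where it had 0 control and 52 TP UMIs. There its ratio was at least 2.94 with 3 UMIs as the floor, and the exact interval, which uses no floor, began at 2.31. Kcnn3 entered the outer bulge-like comparison only through its TP UMIs, and did not pass with at most 5% mitochondrial counts.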

How the results depend on the processing

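Over 20 results and their alternatives, 157 pairs were computed, of which 116 stayed within the limits set for them, namely 1.5 times the reported count, or the counting interval of the reported level or ratio. Another 40 moved beyond these and 1, called at 2-fold, turned in direction. That was Kcnh1 in DPC-like cells, whose ratio was 1.57 in the Rxfp2-led cells alone. Of the values that moved, Kcnq3 in DPC-like cells, not called at 2-fold, also turned, from 0.576 to 1.18 in the Rxfp2-led cells. For the 10 ratios within a class, the other 82 of 84 alternative values lay on the same side of 1 as the reported ratio. These alternatives are not separate checks. Outer bulge-like cells were not clustered again, so their values without the second clustering could not differ. Leaving out the second clustering or the Tnn-led cluster gave the same DPC-like values. Resolutions 0.5 and 2 gave nearly the reported ratios in both classes. The tallies therefore overstate how stable the results are. The count of 9 members higher in TP over the whole library became 14 with TMM scaling, 16 with no minimum of UMIs, 4 with at least 200 UMIs, 0 with log2 of counts per 10000 plus 0.1, 4 at the control library's cluster shares, 5 at the TP library's shares, 13 with doublets kept and 14 over all barcodes. The count of 16 lower members became 20 with no minimum, 11 with at least 200 UMIs, 13 with TMM scaling, 4 on that log2 scale, 4 at control shares and 6 at TP shares. On that scale the added 0.1 exceeds the level of most members, which shrinks the ratio by construction, and the cause of the other moves was not tested. Among these settings, the share over all genes was computed only for TMM scaling and the control library's cluster shares. The other counts cannot be set against genes at large. The TP level of Kcnj8 in DF-like cells was 23.7 CPM at resolution 0.5 and 22.5 CPM without the second clustering. Kcnj8 in TP DPC-like cells was at 1.44 CPM without the second clustering or without the Tnn-led cluster, and at 1.68 CPM in the Luzp2-led cluster alone. Abcc9 in TP smooth muscle and pericyte-like cells was at 187.1 CPM with at most 5% mitochondrial counts, and the count of members higher in outer bulge-like cells was then 2. Without the second clustering no smooth muscle and pericyte-like class was named. The alternatives on TP shares, shared barcodes, the low-depth cluster, the second clustering and single DPC-like clusters, finer ones included, were chosen after seeing the data. Leaving out a replicate was not possible with 1 library per group. No paired analysis was possible because each group has 1 library. Depth limits genes under 3 UMIs in a class, such as Kcnj8 in control DPC-like cells.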

Other observations

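Some genes that match by symbol but fall short of 50 UMIs were concentrated in particular cells. Kcna6, a Kv1 channel, had 13 control and 26 TP UMIs before filtering, of which 7 and 13 were in Schwann-like cells, the class in which Kcna1 is highest. Kcnv1, a silent Kv subunit, had 0 and 20 UMIs before filtering, and 10 of the TP UMIs were in a cluster led by Krt6b and Lce3c.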
